A study of Mus musculus with 6 samples.

Results

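The level and joint detection of 9 genes were followed in single-cell RNA-seq of the mouse jejunum: Ada, Nt5e, Slc28a2, Clca4a, Enpp3, Ly6m, Lama3, Slc23a4 and Pmp22, out of 32285 genes in the count tables. They were taken by symbol as genes of the villus tip around Ada and Nt5e, and all 9 symbols were found. UMIs, the molecule tags that let each captured transcript be counted once, were read in every cell of 6 libraries. The jejunal epithelium of male C57BL/6J mice, about 30 weeks old, was pooled within each of 3 groups and split into crypts and villi, giving 1 library per group and compartment. LFD sham pooled 3 mice on a low-fat diet with a sham operation. HFD sham pooled 3 mice on a high-fat diet with a sham operation, and HFD VSG pooled 2 mice on the high-fat diet that had vertical sleeve gastrectomy, the removal of most of the stomach along its outer curve. All mice had been on their diet for 16 weeks before the operation and returned to it afterwards, and tissue was taken 5 weeks after the operation. Each group is therefore 1 pool, differences between groups of mice have no replicate check, and a test was made for the 2 compartments only, over the 3 groups. Intervals in brackets are at 95% and cover counting error only.

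Enterocytes are born in the crypt, move up the villus and are shed at its tip, and they change their genes as they climb. At the tip, purines from food and from dying cells are broken down on the outer face of the cell. Nucleotides are cut to AMP, AMP is turned into adenosine, and adenosine is either sensed by receptors, taken up by transporters or deaminated to inosine. Of the 9 genes, 5 belong to this route. Enpp3 is an ectoenzyme that splits nucleoside triphosphates and dinucleotides, Nt5e (CD73) makes adenosine from AMP, Slc28a2 carries purine nucleosides into the cell with sodium, Ada deaminates adenosine, and Slc23a4 is a sodium-dependent nucleobase transporter of rodents. The other 4 are not enzymes or carriers of purines. Clca4a is of the family named for calcium-activated chloride channel regulators, Ly6m is a Ly6 family gene, Lama3 is a laminin chain of the basement membrane, and Pmp22 is a small membrane protein with 4 spans known from myelin and from cell junctions.

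The genes lie apart in the genome (GRCm38, GENCODE vM21, all protein coding). Ada spans chr2:163726584-163750239 on the minus strand and Slc28a2 chr2:122426477-122461137 on the plus strand. Nt5e spans chr9:88327197-88372092, Enpp3 chr10:24772406-24842823, Slc23a4 chr6:34945278-34988404 and Pmp22 chr11:63128982-63159547. Clca4a spans chr3:144952480-144975045, Ly6m, named 2010109I03Rik in that release, chr15:74876987-74897021, and Lama3 was placed but its position is not printed. Counts of 2 of them are uncertain because reads that match another gene equally well are not counted. Of all stretches of 50 bases in the Slc28a2 transcripts, 38.0% also occur in Gm14085, and 60.3% of those in the last 500 bases do so. For Clca4a 37.1% are shared with other genes, most of them with Clca4c-ps. Ada, Nt5e, Lama3, Slc23a4 and Pmp22 share none.

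The start regions of Ada, Nt5e and Slc28a2, which make, carry and deaminate adenosine, are printed because these 3 genes were found in the same cells below. Each runs from 250 bases before to 50 bases after the RefSeq start (GRCm38.p6), 5′ to 3′ on the gene's strand, at chr2:163750190-163750489 on the minus strand for Ada, chr9:88327359-88327658 on the plus strand for Nt5e and chr2:122426185-122426484 on the plus strand for Slc28a2. Capitals mark the motif letters searched on both strands: GATAA (GATA factors), CACCC (KLF factors), TGANTCA (AP-1), CAAAGNNCA (HNF4) and TTTATNG (CDX).
Ada: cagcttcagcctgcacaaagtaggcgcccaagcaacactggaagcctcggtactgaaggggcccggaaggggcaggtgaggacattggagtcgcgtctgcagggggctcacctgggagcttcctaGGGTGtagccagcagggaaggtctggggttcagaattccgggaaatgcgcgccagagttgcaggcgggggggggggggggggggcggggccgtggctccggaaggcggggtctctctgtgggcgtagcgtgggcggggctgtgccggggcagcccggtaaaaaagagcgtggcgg
Nt5e: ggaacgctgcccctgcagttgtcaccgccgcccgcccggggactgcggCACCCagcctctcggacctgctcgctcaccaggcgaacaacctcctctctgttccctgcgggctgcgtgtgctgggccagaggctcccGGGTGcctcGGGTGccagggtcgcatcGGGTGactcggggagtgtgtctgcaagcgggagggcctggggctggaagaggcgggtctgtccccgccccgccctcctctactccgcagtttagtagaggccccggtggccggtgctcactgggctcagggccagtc
Slc28a2: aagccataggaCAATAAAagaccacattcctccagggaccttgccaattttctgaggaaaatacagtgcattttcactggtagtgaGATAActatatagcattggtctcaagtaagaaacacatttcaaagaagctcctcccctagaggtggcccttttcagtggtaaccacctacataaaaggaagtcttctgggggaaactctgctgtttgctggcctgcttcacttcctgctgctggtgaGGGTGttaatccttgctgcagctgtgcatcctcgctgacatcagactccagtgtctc
The Ada window held CACCC 1 time in a sequence of 68% G and C, and the Nt5e window held it 4 times at 71%. The Slc28a2 window had 46.7% G and C and held the GATA, KLF and CDX letters 1 time each. RefSeq windows were given for 6 of the 9 genes, 9 windows in all, of which 4 were Pmp22's. CACCC was in 7 of the 9 windows, against 57.5% of 32851 mouse start regions, and TGANTCA was in 0 of 9, against 7.81%. The GATA, HNF4 and CDX letters were in 1 window each, against 25.4%, 6.36% and 10.9% of all regions. A match of letters does not show that a factor binds there.

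The 6 libraries held 59457 barcodes called as cells with 60522766 to 155522445 UMIs per library, and 24059 cells passed the filters, 2963 to 4692 per library with medians of 8830.5 to 30336 UMIs. The compartment names did not match the cells found. Enterocyte-like cells made up 55.5% to 56.6% of the crypt-labelled libraries and 21.7% to 40.8% of the villus-labelled ones, and the words crypt-labelled and villus-labelled below give the name of a library only. The villus-labelled enterocyte-like cells also lay lower on a score of position along the villus, and in the HFD VSG villus-labelled library 61.4% of them fell in the lowest of 5 bins of that score. Free RNA carried the genes as well. In droplets with fewer than 100 UMIs Ada made up 461 of every 1000000 UMIs (counts per 1000000 UMIs summed over the cells or droplets, CPM) in the HFD sham crypt-labelled library, 280 and 198 in those of LFD sham and HFD VSG, and 55.5, 30.3 and 16.0 in the villus-labelled libraries of LFD sham, HFD sham and HFD VSG. In each of the 15 pairs of libraries, 17 to 43 barcodes were shared, at most 0.45% of the smaller library.

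Over all passing cells the 9 genes were detected in every library and were higher in each crypt-labelled library than in any villus-labelled one. The share of all genes that separated the libraries in this way was not counted, and the crypt-labelled libraries held larger shares of enterocyte-like cells, as given above. Ada stood at 217 CPM in LFD sham, 280 in HFD sham and 141 in HFD VSG of the crypt-labelled libraries, and at 54.4, 39.1 and 8.18 in the villus-labelled ones. Nt5e stood at 33.6, 45.9 and 38.6 CPM in the crypt-labelled libraries of LFD sham, HFD sham and HFD VSG, and at 10.8, 5.10 and 5.32 in the villus-labelled ones. The groups of libraries did not overlap for either gene. Slc28a2 was at 64.9, 51.3 and 28.3 in the same order of crypt-labelled libraries and at 19.3, 7.32 and 3.57 in the villus-labelled libraries. Enpp3 was at 135, 118 and 86.6 and then at 40.6, 21.5 and 6.51. Slc23a4 was at 30.9, 23.0 and 17.6 and then at 14.4, 5.48 and 7.76. The purine genes thus kept the same order of compartments, with Slc23a4 closest together. Of the other genes, Clca4a was at 433, 433 and 308 against 120, 63.7 and 13.1, and Ly6m at 160, 170 and 126 against 43.6, 25.1 and 8.22. Lama3 was at 29.4, 33.9 and 30.0 against 8.06, 6.99 and 1.83, and Pmp22 at 225, 258 and 243 against 49.3, 33.1 and 13.6. UMIs are read near the 3′ end and are compared within a gene only.

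**Figure D1:**
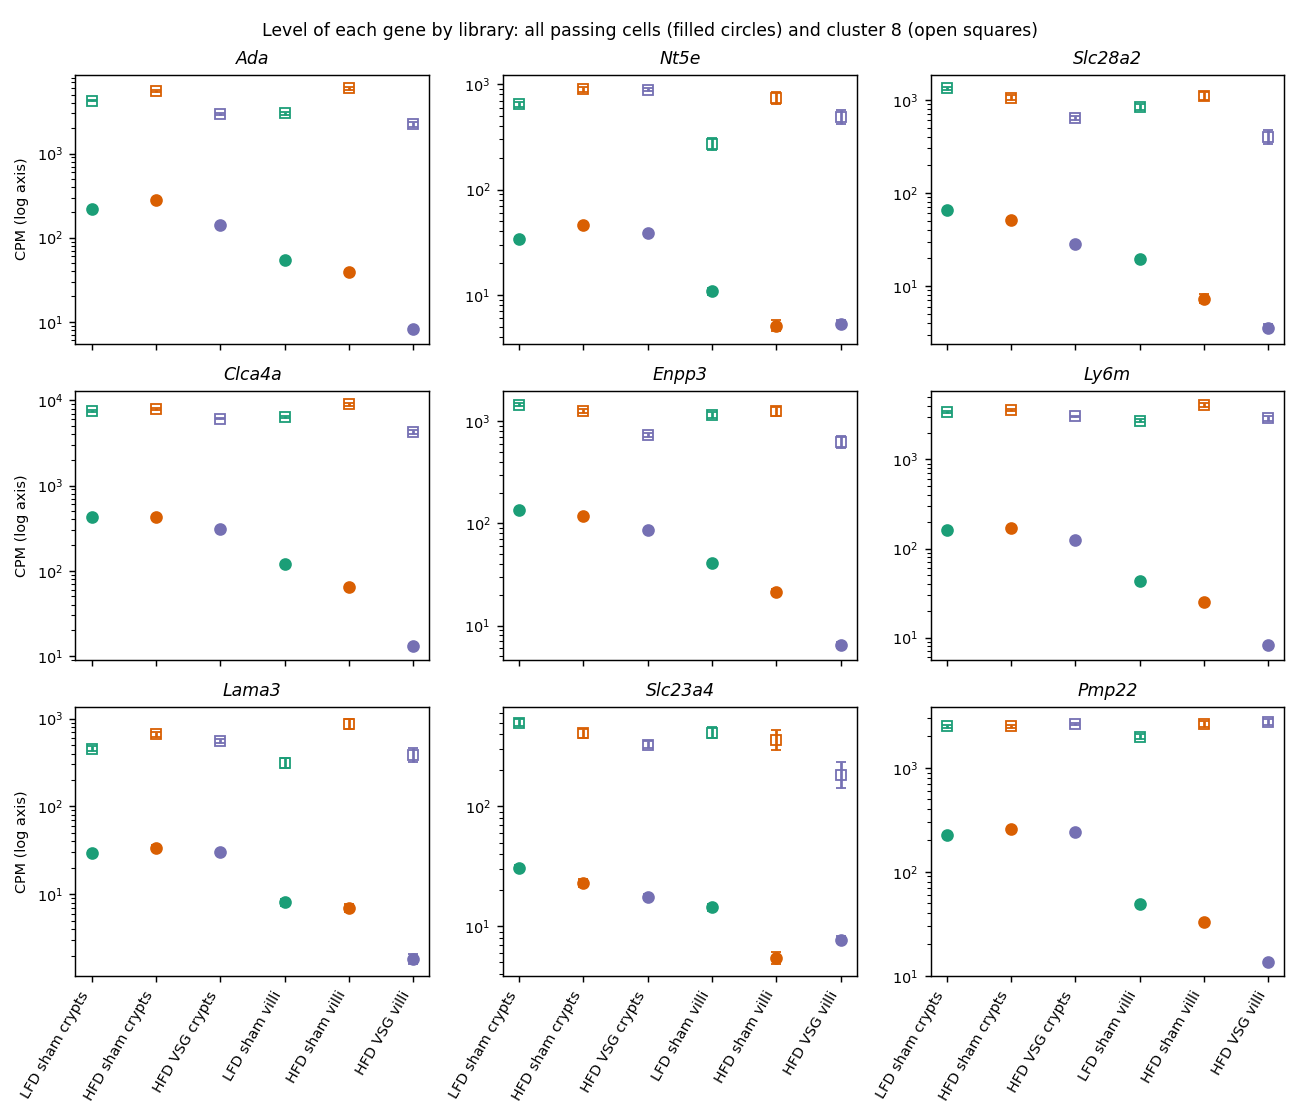
Level of each of the 9 genes in CPM (log axis) in the 6 libraries, over all passing cells (filled circles) and within the enterocyte-like cluster 8 (open squares), with bars for 95% counting error. Ada ran from 8.18 to 280 over all passing cells and from 2236 to 5946 within cluster 8, a narrower range of folds within the cluster.

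In sums over all passing cells the number of cells of a type and the RNA in each cell cannot be told apart. When cells were clustered without the 9 genes, cluster 8 (1058 cells) was highest for each gene in each library, 54 of 54 pairs of gene and library. The share of all genes highest in this cluster was not counted. The 9 genes were chosen with earlier results of these data known, and Ly6m, Ada, Nt5e and Clca4a led its genes, so the count is a description. The cluster was named enterocyte-like from 7 of 13 enterocyte markers counted. The other enterocyte-like clusters, 0, 1, 4 and 14, had 13, 13, 12 and 13 of them. At a clustering resolution of 0.8 in place of 0.4, 96.9% of cluster 8 cells lay in a cluster left unnamed and 3.12% in another. Ptprc, the leukocyte marker CD45, was at 3.39 CPM in cluster 8. The cluster held 1093 CPM of Alpi, the brush border alkaline phosphatase, and 4905 of Krt20, a keratin of mature epithelium. Its cells were shallower than the other enterocyte-like cells, with medians of 4588.5 to 12488.5 UMIs per library against 13346.5 to 34421.5, and their median mitochondrial share was 13.1% to 15.8% against 9.69% to 13.4%. The part of depth or cell damage in the cluster was not tested. It held 306, 258 and 292 cells in the crypt-labelled libraries of LFD sham, HFD sham and HFD VSG, and 123, 57 and 22 in the villus-labelled ones. These were 13.5% [12.1 to 15], 15.4% [13.7 to 17.2] and 11.1% [9.93 to 12.4] of enterocyte-like cells in the crypt-labelled libraries, and 9.90% [8.29 to 11.7], 3.61% [2.75 to 4.66] and 2.35% [1.48 to 3.54] in the villus-labelled ones. The HFD sham and HFD VSG villus-labelled libraries had the smallest shares, and their intervals overlapped each other.

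Ada in cluster 8 reached 4271 CPM in LFD sham, 5577 in HFD sham and 2950 in HFD VSG of the crypt-labelled libraries, and 3014, 5946 and 2236 in the villus-labelled ones. In the other enterocyte-like cells Ada was at 49.1, 69.8 and 32.2 and at 14.8, 4.28 and 1.49 in the same order. Nt5e in cluster 8 was at 644, 893 and 889 in the crypt-labelled libraries and at 272, 741 and 489 in the villus-labelled ones, and in the other enterocyte-like cells it was at 0.34 to 9.86. No library's other enterocyte-like cells came near the lowest cluster 8 value of either gene. The same held for the carrier Slc28a2 (401 to 1326 in cluster 8, 0.062 to 11.2 outside), Ly6m (2713 to 4060, 0.19 to 34.6), Slc23a4 (184 to 500.3, 0.68 to 11.5), Lama3 (311 to 869, 2.58 to 12.9) and Clca4a (4240 to 8985, 4.72 to 173). Enpp3 (629 to 1448, 8.82 to 102) and Pmp22 (1992 to 2742, 21.8 to 242) had the largest levels outside relative to inside. Cluster 8 therefore held 84.2% to 95.1% of the Ada UMIs of enterocyte-like cells and 85.8% to 96.2% of those of Nt5e, but 35.6% to 55.5% for Enpp3 and 40.8% to 65.4% for Pmp22.

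Within cluster 8 the genes differed in how evenly the cells held them. A UMI of Clca4a was found in 86.4% to 100% of its cells and one of Pmp22 in 95.5% to 100%, while Ada was found in 77.3% to 96.9%. Nt5e was found in 52.0%, 64.0% and 63.7% of the cells in the crypt-labelled libraries of LFD sham, HFD sham and HFD VSG and in 26.8%, 40.4% and 31.8% in the villus-labelled ones. Counts per cell were spread wide. The median cluster 8 cell held 8 to 19 UMIs of Ada depending on the library, and the richest cell of a library held 116 to 327. In the HFD VSG villus-labelled library the richest of the 22 cells held 171 of 764 Ada UMIs in the cluster, and without that cell Ada in the cluster was at 1783 CPM.

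**Figure D2:**
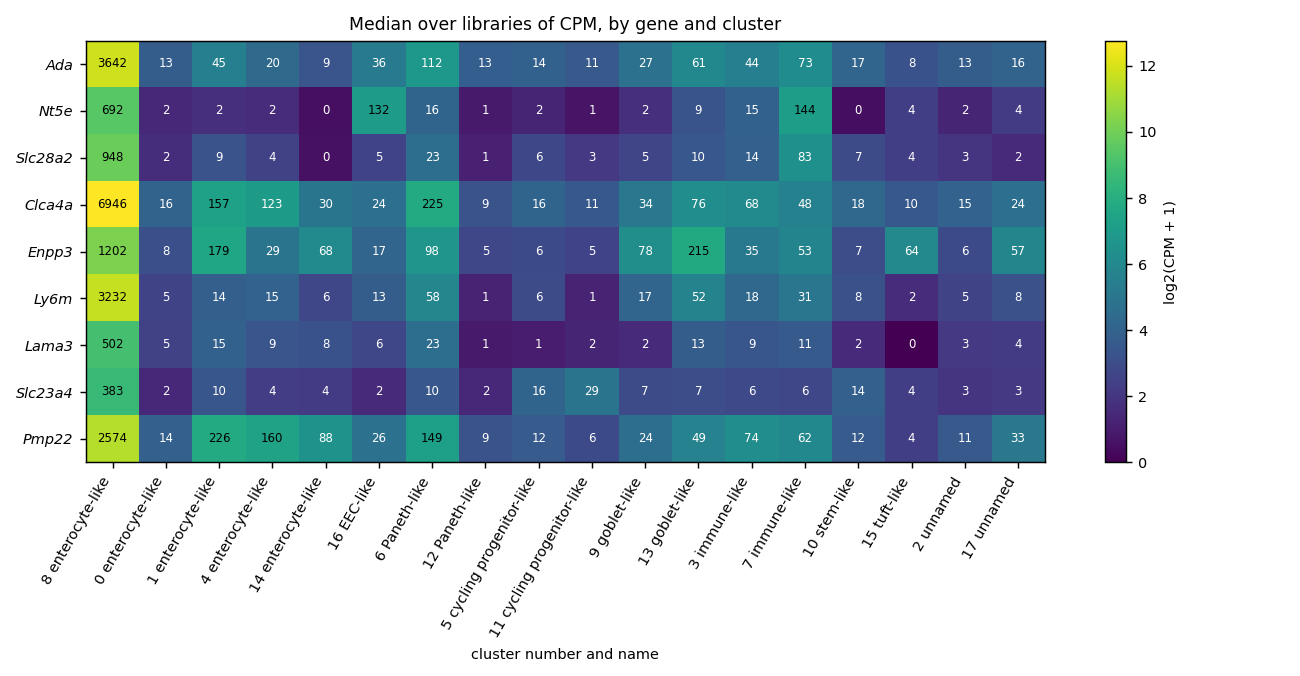
Median over libraries of CPM for each gene (rows) in each cluster (columns), with colour on the scale log2(CPM + 1). Cluster 8 is the highest column for all 9 genes, and Nt5e has further high values in the immune-like cluster 7 and the EEC-like cluster 16.

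Outside cluster 8 the 9 genes parted company. Nt5e was next highest in cluster 7, an immune-like cluster with 1520 CPM of Ptprc, at 126 to 185 CPM in 5 libraries, and in the enteroendocrine (EEC-like) cluster 16, at 6.99 to 496. Slc28a2 also came next in cluster 7, at 44.7 to 101. Free RNA, in droplets with fewer than 100 UMIs, held 37.9 to 70.4 CPM of Nt5e in the crypt-labelled libraries and 6.13 to 8.33 in the villus-labelled ones, below cluster 7 in each of those 5. For Slc28a2 the crypt-labelled values of cluster 7, at 96.7, 101 and 44.7 in LFD sham, HFD sham and HFD VSG, stood beside 92.6, 102 and 40.7 in free RNA, whose part in them was not tested. In the villus-labelled libraries they were 83.4 against 26.7 in LFD sham and 55.2 against 5.91 in HFD VSG. Slc23a4 was next highest in dividing and stem cells, at 14.5 to 37.9 in the cycling progenitor-like cluster 11, 12.3 to 25.7 in cluster 5 and 9.38 to 18.4 in the stem-like cluster 10. Free RNA held 40.1, 48.5 and 16.8 of Slc23a4 in the crypt-labelled libraries of LFD sham, HFD sham and HFD VSG. In the villus-labelled ones it held 7.77, 6.91 and 7.44, below all 3 clusters. Enpp3 followed in the goblet-like cluster 13, at 72.1 to 380, and Pmp22 in the enterocyte-like clusters 1 and 4, at 44.4 to 477 and 66.4 to 495. In free RNA Enpp3 was at 106 to 181 in the crypt-labelled and 9.63 to 37.8 in the villus-labelled libraries. Pmp22 was at 224 to 344 and 15.3 to 43.3 there. The part of free RNA in the cluster values of these 3 genes was not tested. For Ada, Clca4a, Ly6m and Lama3 the next cluster was cluster 6, by the median over libraries. This cluster was named Paneth-like from its markers, but its cells were shallow and it held 1462 CPM of Lyz1 against 60970 in the Paneth-like cluster 12, beside 12610 of Apoa1 and 988 of Krt20, against 405 and 30.2 there. There Ada stood at 226, 320 and 190 CPM in the crypt-labelled libraries of LFD sham, HFD sham and HFD VSG and at 33.6, 13.3 and 3.17 in the villus-labelled ones, the same order of libraries as for Ada in free RNA, whose part in that value was not tested.

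Detection of Ada and Nt5e in cluster 8 was set beside that in stem-like and cycling progenitor-like cells. Slc23a4 was left out, since its next highest clusters after cluster 8 were of these cells. With every cell thinned to 3000 UMIs, Ada was found in 31.8% [18.6 to 47.6] of stem-like and 27.3% [19.2 to 36.6] of cycling progenitor-like cells of the HFD sham crypt-labelled library, and in 19.99% of its enterocyte-like cells outside cluster 8. The part of free RNA and of expression in these shares was not tested. In the LFD sham crypt-labelled library the Ada shares were 9.09% of stem-like, 6.60% of cycling progenitor-like and 15.2% of enterocyte-like cells outside cluster 8, and in that of HFD VSG they were 4.76%, 7.14% and 8.33%. In cluster 8 the share was 90.4%, 95.6% and 83.5% in the crypt-labelled libraries of LFD sham, HFD sham and HFD VSG and 78.5%, 80.0% and 63.6% in the villus-labelled ones. Ada in cluster 8 was above the share in stem-like and cycling cells in all 6 libraries, the HFD sham crypt-labelled one included. Ada and Nt5e were among the genes that led this cluster and were chosen with earlier results of these data known. The comparison is therefore a description. Nt5e was found in 0 stem-like cells of 5 libraries, which allows shares with a UMI at that depth of up to 0.94% to 8.04%, in 1.59% of those of the HFD VSG crypt-labelled library, and in 0.12% to 1.82% of cycling progenitor-like cells. Without thinning Nt5e was found in 15.6% of stem-like cells of the HFD sham crypt-labelled library, 4.72% of those of the HFD VSG crypt-labelled one and 0% to 0.91% in the other libraries. In cluster 8 Nt5e was found in 46.1%, 56.4% and 54.3% of thinned cells in the crypt-labelled libraries of LFD sham, HFD sham and HFD VSG and in 19.8%, 32.7% and 31.8% in the villus-labelled ones, above the thinned shares of stem-like and cycling cells in each.

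A score made of 8 genes known from the upper villus (Krt20, Klf4, Egfr, Apoa4, Slc15a1, Lgals3, Mxd1 and Creb3l3) minus 8 from its lower part (Nlrp6, Il18, Lypd8, Reg1, Reg3b, Reg3g, Ccl25 and Gsdmc4) placed each enterocyte-like cell, and the cells were split into 5 bins of rising score, with each library given equal weight. The score is a range and not a cell type: 686 of 10325 cells lay within 0.1 of the lower edge of the highest bin. All 9 genes were highest in the highest bin in all 6 libraries, and 940 of the 1058 cells of cluster 8, 88.9%, lay there, where they made up 38.8% of the cells. The share of all genes highest in that bin was not counted. Ada in the LFD sham crypt-labelled library went through 23.3, 27.8, 42.4, 87.1 and 1348 CPM from the lowest to the highest bin, and in that of HFD sham through 38.5, 45.6, 54.0, 82.6 and 1717. In the LFD sham villus-labelled library it went through 2.87, 3.04, 35.0, 529 and 2589, and in that of HFD sham through 2.09, 3.70, 2.70, 15.2 and 1549. The step came late in each, between bins 4 and 5, except in the LFD sham villus-labelled library, where bin 4 was already high. Nt5e there went through 0.67, 0.87, 0.71, 39.6 and 244. In HFD sham it was at 0.21 to 0.65 in bins 1 to 4 of the villus-labelled library and at 194 in the highest.

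Pmp22 and Clca4a were higher at every step of the 5 bins in 6 of 6 libraries, Enpp3 in 5, Ada in 4, Slc28a2, Ly6m and Lama3 in 3, and Nt5e and Slc23a4 in 2. Pmp22 in the HFD VSG crypt-labelled library went through 23.2, 37.9, 60.1, 176 and 1233 CPM, and Clca4a through 19.4, 24.5, 35.8, 61.8 and 1827. Both genes thus climbed over the whole score, with the largest step into bin 5. Summed over the 9 genes, the highest bin was 75.9 [66.5 to 87.1], 51.3 [43.7 to 60.7] and 65.1 [56.9 to 75] times the lowest in the crypt-labelled libraries of LFD sham, HFD sham and HFD VSG. In the villus-labelled libraries it was 544 [464 to 643], 481 [383 to 613] and 784 [672 to 921] times the lowest. The size and order of these ratios depended on how the bins were made. With bins cut within each library the villus-labelled values were 319, 186 and 145.5, which put HFD VSG lowest, and without Apoa4, Reg1, Reg3b and Reg3g in the score they were 451, 1092 and 1344. Over all passing cells they were 187.5, 118 and 267, and 29.8, 26.5 and 39.9 in the crypt-labelled libraries. The larger ratios went with lower values at the bottom, and free RNA held more of these genes in the crypt-labelled libraries, whose part in the ratio was not tested.

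**Figure D3:**
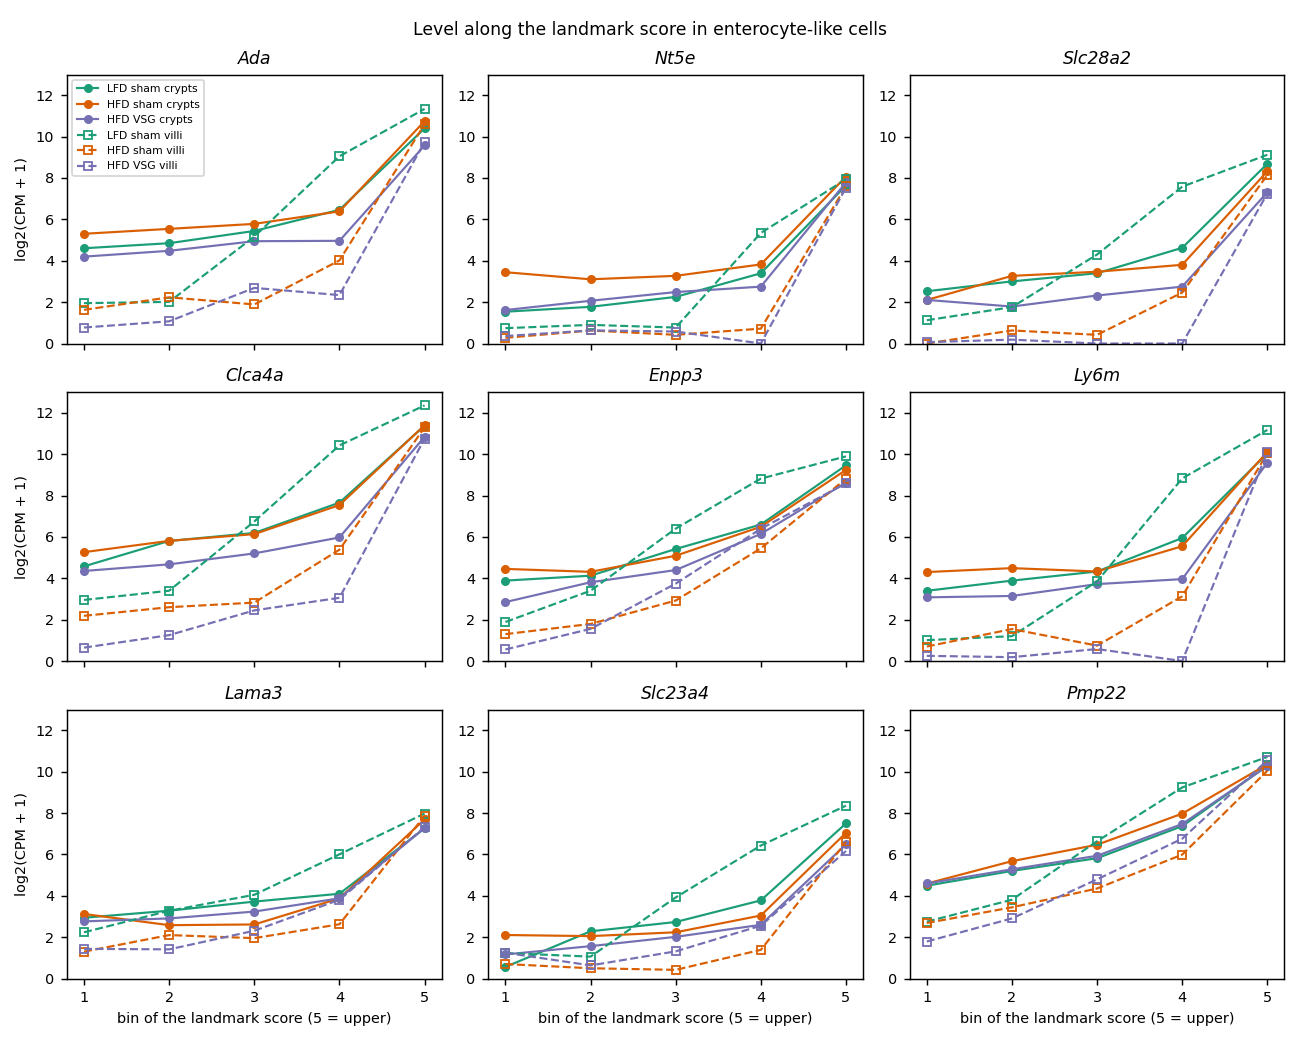
Level of each gene, as log2(CPM + 1), over the 5 bins of the landmark score in enterocyte-like cells, with 1 line per library (circles and full lines crypt-labelled, squares and dashed lines villus-labelled). Every line is highest in bin 5, and the line of the LFD sham villus-labelled library climbs 1 bin earlier for most genes, for Ada to 529 CPM in bin 4.

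Ada and Nt5e were found in the same cells. With enterocyte-like cells thinned to 3000 UMIs, both were found in 140 of 2209 cells in LFD sham, 153 of 1601 in HFD sham and 154 of 2607 in HFD VSG of the crypt-labelled libraries. These were 6.34% [5.36 to 7.44], 9.56% [8.16 to 11.1] and 5.91% [5.03 to 6.88] of cells, where 1.78%, 3.45% and 1.06% would hold both if the genes were found independently of each other. In the villus-labelled libraries both were found in 24 of 1164, 22 of 1537 and 7 of 936 cells, 2.06% [1.33 to 3.05], 1.43% [0.90 to 2.16] and 0.75% [0.30 to 1.54], against 0.28%, 0.062% and 0.020%. The observed share lay above the independent one in all 6 libraries. The odds ratio, the odds of finding Nt5e in cells with Ada over the odds in cells without it, was 26.1 [16.5 to 41.3], 18.9 [12.2 to 29.2] and 62.9 [39.0 to 101] in the crypt-labelled libraries of LFD sham, HFD sham and HFD VSG. It was 60.2 [19.3 to 188], 520 [96.8 to 2790] and 220 [47.3 to 1021] in the villus-labelled ones. Only 1 to 3 cells there held Nt5e without Ada. The size of the odds ratio depended on the thinning: without it the values were 4.27, 3.63 and 5.69 in the crypt-labelled and 16.3, 49.2 and 16.1 in the villus-labelled libraries. Read the other way, Nt5e was found in 26.2%, 30.8% and 37.2% of cells with Ada in the crypt-labelled libraries and in 16.9%, 34.4% and 36.8% in the villus-labelled ones.

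Most of the joint detection lay in cluster 8. The counts by cluster come from a separate random thinning and do not add up exactly to those above. Within the cluster, both Ada and Nt5e were found in 132 of 291, 126 of 225 and 150 of 278 cells in the crypt-labelled libraries and in 23 of 121, 18 of 55 and 7 of 22 in the villus-labelled ones. Among the other enterocyte-like cells the 2 genes met in 6, 25 and 9 cells of the crypt-labelled libraries and in 0 of 1043, 0 of 1482 and 0 of 914 of the villus-labelled ones, which allow shares with UMIs of both at 3000 UMIs per cell of up to 0.35%, 0.25% and 0.40% by the exact binomial limit. Inside the cluster the odds ratio of Ada and Nt5e was still 10.7 [2.86 to 39.9], 8.95 [1.57 to 51.2] and 55.3 [10.6 to 288] in the crypt-labelled libraries. In the villus-labelled ones, with 121, 55 and 22 cells, the interval held 1 in all 3. It was 5.51 [1.00 to 30.5] in LFD sham, and in HFD sham and HFD VSG all 18 and all 7 cells with Nt5e also held Ada. Of the 9 genes, cluster 8 cells held a mean of 7.10, 7.24 and 6.66 in the crypt-labelled libraries and 6.21, 6.40 and 5.00 in the villus-labelled ones at 3000 UMIs. The other enterocyte-like cells held 0.081 to 1.34. All 9 genes were found together in 72, 67, 66, 13, 8 and 5 cells of the cluster, in the order of libraries used above, and in 0 of the other enterocyte-like cells in that thinning. The thinning used for the whole class found 76, 65, 66, 12, 14 and 4 enterocyte-like cells with all 9, so these counts move with the draw.

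All 36 pairs among the 9 genes had an odds ratio above 1, with the interval above 1, in all 6 libraries. Pairs of genes in general were not counted, and the 9 were chosen with earlier results of these data known, so the count describes these genes only. The median over libraries ran from 11.1 for Enpp3 and Lama3 to 116 for Nt5e and Slc28a2, with a median of 31.5 over the pairs. The pairs of Nt5e with Slc28a2 (116) and Ly6m (106) stood above that of Ada and Nt5e (61.5), and the next lowest after Enpp3 and Lama3 was Lama3 and Pmp22 (11.4). Of the 8 genes of the upper villus, 4 had an odds ratio with Ada above 1, interval included, in all 6 libraries, Egfr (odds ratio 4.58 to 24.0), Klf4 (1.80 to 7.77), Lgals3 (1.43 to 12.7) and Mxd1 (2.56 to 23.8). Creb3l3 was so in 5 libraries, Krt20 and Slc15a1 in 1 each, and Apoa4 in 0 (0.15 to 10.8). Of the 8 genes of the lower villus, 3 had an odds ratio with the whole interval below 1 in all 6, at 0.057 to 0.20 for Ccl25, 0.11 to 0.34 for Nlrp6 and 0.077 to 0.53 for Lypd8. The odds ratios of Il18 (0.15 to 0.48) and Reg1 (0.14 to 0.60) were also below 1 in all 6, with the whole interval below 1 in 5 and 3. The whole interval was below 1 in 4 libraries for Reg3b, 2 for Reg3g and 0 for Gsdmc4 (1.02 to 7.61), and above 1 in 1 library each for Reg3b and Reg3g.

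**Figure D4:**
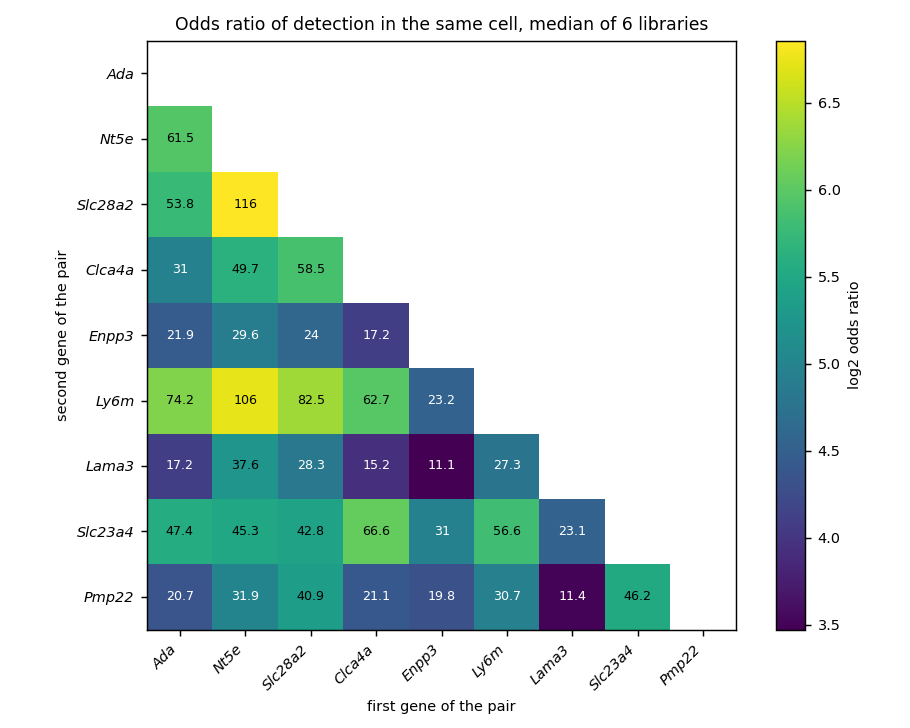
Median over the 6 libraries of the odds ratio of finding both genes of a pair in the same enterocyte-like cell thinned to 3000 UMIs, for the 36 pairs of the 9 genes, with colour on a log2 scale. The values run from 11.1 (Enpp3 and Lama3) to 116 (Nt5e and Slc28a2).

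The villus-labelled library was set against the crypt-labelled one of the same mice, as log2 ratios of CPM, with a size of 0.5 called. Over passing cells all 9 genes were below -0.5 in each group, where 13.5% of all tested genes were so in LFD sham, 5.97% in HFD sham and 22.2% in HFD VSG. The median log2 ratio of the 9 was -1.86, -2.77 and -3.94, and that of all genes 0.33, 0.21 and 0.19. In enterocyte-like cells all 9 were again below -0.5 in each group, against 5.1%, 3.67% and 21.8% of all genes, with medians of -0.79, -2.29 and -3.00. Of the 8 upper-villus genes of the score 5, 7 and 7 were below -0.5 too, with medians of -0.63, -0.61 and -1.52. Of the lower-villus genes 6 of 7, 4 of 7 and 8 of 8 were above 0.5. The part of this shift in position was not tested. Clusters 0 and 1 held most enterocyte-like cells of every library, in different shares. Cluster 1 held 41.0%, 34.8% and 38.2% in the crypt-labelled libraries and 28.9%, 27.3% and 17.3% in the villus-labelled ones. Cluster 0 held 25.45%, 31.9% and 31.5% in the former and 32.3%, 50.8% and 54.8% in the latter. Within cluster 8 the gap was smaller. There 4 of the 9 genes were below -0.5 in LFD sham, 0 in HFD sham and 5 in HFD VSG, against 11.5%, 4.35% and 13% of all genes. Nt5e had the lowest log2 ratio there in each group, at -1.25 [-1.46 to -1.04], -0.27 [-0.48 to -0.06] and -0.86 [-1.10 to -0.64]. Pmp22 was at -0.33 [-0.41 to -0.25], 0.09 [-0.03 to 0.20] and 0.05 [-0.05 to 0.15]. In HFD sham no gene differed by 0.5 once cluster 8 was compared with itself. In the other enterocyte-like cells all 9 genes were below -0.5 in each group, against 5.2%, 2.75% and 21.2% of all genes. The medians were -1.45, -3.27 and -3.68, so the low villus-labelled values were not confined to cluster 8. Ada in these cells was at 49.1, 69.8 and 32.2 CPM in the crypt-labelled and 14.8, 4.28 and 1.49 in the villus-labelled libraries. Free RNA held 280, 461 and 198 of Ada in the former and 55.5, 30.3 and 16.0 in the latter. The part of free RNA in these ratios was not tested.

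Taking the 3 groups as 3 pairs of libraries of the same mice, edgeR's quasi-likelihood test with the group of mice as a block put all 9 genes lower in the villus-labelled libraries over passing cells, against 20.4% of 14696 genes tested. The log2 fold ran from -3.40 for Pmp22 to -1.74 for Slc23a4, with Benjamini-Hochberg adjusted p of 0.00859 to 0.00888. In enterocyte-like cells all 9 were lower too, against 4.94% of genes, with Nt5e at -2.55 (edgeR adjusted p 0.00648) and Ada at -2.09 (0.0131). Without cluster 8 the test again called all 9, against 4.96% of genes, where the part of free RNA was not tested either. Within cluster 8 it called Nt5e alone of the 9, at -0.85 (edgeR adjusted p 0.00853), against 0.187% of genes. Ada there was at -0.33 (0.436). The test was added after seeing the data, rests on 2 residual degrees of freedom and takes pools with different diet and surgery as replicates of the compartment. Without the block edgeR called 9 of the 9 lower over passing cells, among 1758 of 14167 genes. It called 0 of the 9 in enterocyte-like cells and without cluster 8, where it called 0 of 11511 and 0 of 11442 genes in either direction, and 0 within cluster 8, where it called 0 of 6000 genes lower and 3 higher. Of the 9 without cluster 8, 8 had an unadjusted p under 0.05, as did 7 in all enterocyte-like cells and 1 within cluster 8. The share of all genes with an unadjusted p under 0.05 was not counted in any of these fits, so such counts have nothing to be set against. Over passing cells edgeR called 0 of 14231 genes without HFD VSG, the 9 having adjusted p of 0.0594 to 0.0599 and all an unadjusted p under 0.05. Without LFD sham 7 of the 9 were among 19 genes of 14339 called lower, while without HFD sham the lowest edgeR adjusted p was 4.83e-50, so the p-values moved with the group left out far more than the fold did. The call of Nt5e within cluster 8 was lost without LFD sham and without HFD VSG.

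The first comparison of mice asks what the high-fat diet changed, as HFD sham over LFD sham. In the crypt-labelled enterocyte-like cells, 1 of 9 genes was above 0.5 (5.13% of all genes) and 0 below -0.5 (6.78%), with a median log2 ratio of 0.10 against -0.01 for all genes. Nt5e was that gene, at 65.1 CPM in HFD sham and 45.02 in LFD sham, a log2 ratio of 0.53 [0.42 to 0.64]. Ada was at 415 and 320, 0.37 [0.33 to 0.42]. Slc28a2 at -0.32 [-0.41 to -0.23], Slc23a4 at -0.44 [-0.57 to -0.30] and Enpp3 at -0.17 [-0.24 to -0.11] lay on the other side of 0 and within the size called. The signs of Nt5e and Ada depended on which cells were kept: with at least 1500 genes per cell Nt5e was at -0.18 and Ada at -0.25, and with at most 10% mitochondrial UMIs they were at -0.45 and -0.13. The filter on genes kept 67.0% of cluster 8 cells in LFD sham and 34.9% in HFD sham. Free RNA held more Ada in the HFD sham library, as given above. With free RNA subtracted by the fractions the study states, or as 0.1 of each library, Nt5e was at 0.47 and 0.495 and Ada at 0.29 and 0.34, so 0 of the 9 genes were above 0.5. Within cluster 8 the crypt-labelled values were close to these, at 0.39 [0.34 to 0.43] for Ada and 0.47 [0.36 to 0.59] for Nt5e, and Lama3, at 0.55 [0.41 to 0.69], was the 1 gene above 0.5 (5.29% of all genes).

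In the villus-labelled libraries the diet comparison differed between cluster 8 and the other enterocyte-like cells. In all enterocyte-like cells the 9 genes were all below -0.5 in HFD sham over LFD sham (6.49% of all genes; 7 of 9 and 20.3% over passing cells), with a median of -1.37 against 0.03 for all genes. Ada was at 85.3 CPM in HFD sham and 173 in LFD sham, a log2 ratio of -1.02 [-1.11 to -0.94], and Nt5e at 10.5 and 14.99, -0.51 [-0.78 to -0.25]. Slc23a4 was lowest at -2.24 [-2.54 to -1.95], followed by Enpp3 at -1.76 [-1.89 to -1.64] and Slc28a2 at -1.65 [-1.84 to -1.47]. Within cluster 8, which was 3.61% of enterocyte-like cells in HFD sham and 9.90% in LFD sham, 0 of 9 genes were below -0.5 and 4 were above 0.5 (16.5% of all genes). These were Lama3 at 1.48 [1.23 to 1.74], Nt5e at 1.45 [1.18 to 1.72], Ada at 0.98 [0.89 to 1.07] and Ly6m at 0.58 [0.48 to 0.68]. For 7 of the 9 genes the whole interval lay above 0 within the cluster. In enterocyte-like cells without cluster 8 all 9 were below -0.5 (5.96%), with a median of -1.70. The clusters also held different shares of the class, with cluster 0 at 50.8% of enterocyte-like cells in HFD sham and 32.3% in LFD sham. Cluster 0 was low in these genes, at 9.27 CPM of Enpp3 and 16.9 of Pmp22 over all libraries against 158 and 265 in cluster 1, and the part of this difference in the ratios was not tested. The same genes thus read lower in HFD sham when all enterocyte-like cells were summed and, but for Slc23a4, higher within cluster 8. The interval of Enpp3 within the cluster held 0. With at most 10% mitochondrial UMIs per cell, 1 of 9 genes was below -0.5 in all enterocyte-like cells and Ada was at 0.29.

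**Figure D5:**
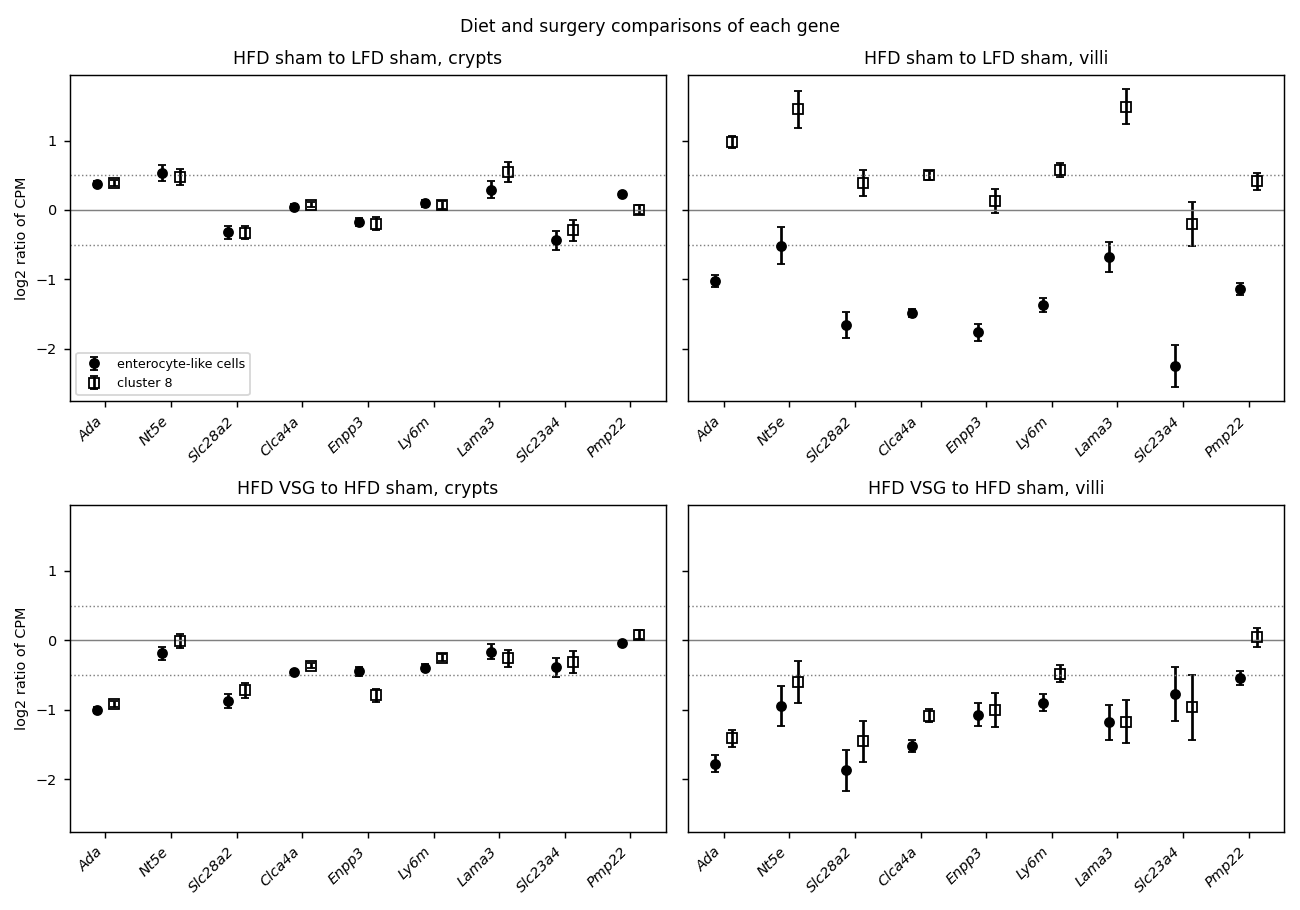
Log2 ratios of CPM of each gene for HFD sham to LFD sham (top) and HFD VSG to HFD sham (bottom) in the crypt-labelled (left) and villus-labelled (right) libraries, in all enterocyte-like cells (filled circles) and within cluster 8 (open squares), with bars for 95% counting error and dotted lines at 0.5 and -0.5. In the crypt-labelled libraries circles and squares differ in size for some genes, as for Enpp3 with surgery, which is past -0.5 within cluster 8 only. They lie on opposite sides of 0 for 8 of 9 genes in the villus-labelled diet comparison.

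The second comparison asks what sleeve gastrectomy changed on the high-fat diet, as HFD VSG over HFD sham, and it shares the HFD sham libraries with the first. In the crypt-labelled enterocyte-like cells all 9 genes had a log2 ratio below 0 and 2 were below -0.5 (2.37% of all genes). The median was -0.39 against 0.11 for all genes, and the share of all genes below 0 was not counted. Ada was at 206 CPM in HFD VSG and 415 in HFD sham, a log2 ratio of -1.01 [-1.05 to -0.96], and Slc28a2 at 41.7 and 76.5, -0.87 [-0.97 to -0.78]. Nt5e was at 57.2 and 65.1, -0.19 [-0.28 to -0.09]. The enzyme that deaminates adenosine and a carrier of nucleosides were thus lower by more than the size called. With at least 1500 genes per cell 0 of the 9 were below -0.5, Ada was at -0.13 and Slc28a2 at 0.02, while Nt5e was at 0.85 and Lama3 at 0.61. That filter kept 34.9% of cluster 8 cells in HFD sham and 81.2% in HFD VSG. Of the other enterocyte-like cells it kept 90.1% and 99.6%. The part of this unequal loss in the ratios was not tested. With at most 10% mitochondrial UMIs Nt5e was at 0.145. Within cluster 8 the crypt-labelled values were -0.92 [-0.97 to -0.87] for Ada, -0.72 [-0.82 to -0.62] for Slc28a2 and -0.79 [-0.89 to -0.70] for Enpp3, 3 genes below -0.5 (1.86% of all genes), while Nt5e was at -0.01 [-0.11 to 0.10] and Pmp22 at 0.08 [0.02 to 0.14]. Without cluster 8, 5 genes were below -0.5 (2.28%). Ada in HFD VSG was also below LFD sham in these libraries, at -0.63 [-0.67 to -0.59], 1 of 4 genes below -0.5 in that comparison (5.28%) with Slc28a2, Slc23a4 and Enpp3. Of the 4, the lowest was Slc28a2 at -1.20 [-1.28 to -1.11].

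In the villus-labelled enterocyte-like cells all 9 genes were below -0.5 in HFD VSG over HFD sham (16.1% of all genes), with a median of -1.07 against -0.03 for all genes. The upper-villus genes of the score were lower as well, 7 of 8 below -0.5 with a median of -0.70, and 61.4% of HFD VSG against 17.7% of HFD sham enterocyte-like cells lay in the lowest bin. The part of this shift in position was not tested. Ada was at 24.9 CPM in HFD VSG and 85.3 in HFD sham, a log2 ratio of -1.77 [-1.89 to -1.66], Slc28a2 at 4.27 and 15.6, -1.87 [-2.17 to -1.58], and Nt5e at 5.47 and 10.5, -0.94 [-1.23 to -0.66]. With at least 1500 genes per cell 5 of the 9 were below -0.5 and Nt5e was at 0.22. Cluster 1 was 17.3% of enterocyte-like cells in HFD VSG and 27.3% in HFD sham. Within cluster 8, with 22 and 57 cells, 7 genes were below -0.5 (12.4%), among them Ada at -1.41 [-1.54 to -1.29] and Slc28a2 at -1.46 [-1.75 to -1.17], while Pmp22 was at 0.05 [-0.09 to 0.18]. Slc28a2 was found in 27.3% of the 22 HFD VSG cells. The richest cell held 32.9% of its 137 UMIs there, and without that cell Slc28a2 was at 277 CPM. Without cluster 8, 6 were below -0.5 (16.2%). Over passing cells 7 were below -0.5 (21.2%) and Nt5e was at 0.06. There 1 gene, Slc23a4 at 0.50, was above 0.5 (26.8%). Cycling progenitor-like cells, where Slc23a4 was next highest, were 19.9% of the HFD VSG and 8.99% of the HFD sham library. The immune-like cluster 7, where Nt5e was next highest, had 398 cells in HFD VSG and 5 in HFD sham. The part of these cells in either ratio was not tested. Against LFD sham, all 9 genes were below -0.5 in the villus-labelled HFD VSG library (19.7%), with a median of -2.80. Within cluster 8 of that comparison 4 were below -0.5 (9.07%) and 1 above 0.5 (33.4%), with a median of -0.43 against 0.285 for all genes, from Slc23a4 at -1.16 [-1.57 to -0.77] to Nt5e at 0.85 [0.55 to 1.14]. Ada and Slc28a2 were thus lower in HFD VSG than in HFD sham in both compartments, in cluster 8 as well as in all enterocyte-like cells, but under the filter on genes given above Ada in the crypt-labelled libraries was no longer past the size called and Slc28a2 was above 0.

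The other genes of purine handling, 66 found of 67 listed, did not move as 1 block with the 9 in enterocyte-like cells. Listed genes needed a mean of 20 UMIs and all genes a mean of 50, so the shares below are not like for like. In the diet comparison, 7 of 40 with enough UMIs were below -0.5 and 2 above 0.5 in the crypt-labelled libraries (6.78% and 5.13% of all genes), and 8 and 9 of 40 in the villus-labelled ones (6.49% and 5.86%). In the surgery comparison the counts were 0 below and 5 above of 40 in the crypt-labelled libraries (2.37% and 6.92% of all genes), and 10 and 9 of 41 in the villus-labelled ones (16.1% and 17.1%). Among the carriers, Slc28a1, the pyrimidine-preferring relative of Slc28a2, had a log2 ratio of 0.82 [0.74 to 0.91] with the diet in the crypt-labelled and 1.47 [1.35 to 1.59] in the villus-labelled libraries, where Slc28a2 was at -0.32 and -1.65. Slc23a1, the vitamin C carrier related to Slc23a4, was at 0.82 [0.73 to 0.90] with the diet and -1.39 [-1.46 to -1.31] with surgery in the villus-labelled libraries. Adora2b, a receptor for adenosine, was at 1.26 [0.86 to 1.68] with the diet and -1.13 [-1.44 to -0.83] with surgery there. Of 9 genes of purine breakdown, 3 were below -0.5 and 3 above 0.5 with surgery in the villus-labelled libraries, with a median of 0.19. Among those below, Gda, guanine deaminase, was at -1.18 [-1.21 to -1.15] and Xdh, xanthine dehydrogenase, at -0.99 [-1.05 to -0.94]. Of the enzymes that build purines anew, 6 of 8 were above 0.5 with surgery in the villus-labelled libraries, where 61.4% of HFD VSG and 17.7% of HFD sham enterocyte-like cells were in the lowest bin of the score, with a median of 1.13, among them Atic at 1.97 [1.46 to 2.52] and Impdh2 at 1.67 [1.32 to 2.04]. With the diet 5 of 7 were below -0.5 there, where 6.49% of all genes were, with a median of -0.70. The lowest bin held 28.5% of LFD sham and 17.7% of HFD sham enterocyte-like cells of these libraries. The part of position in either result was not tested.

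Over 53 sums of UMIs by cell class and library, the 4 genes of 11319 whose log2 level most resembled that of Ada were Ly6m (Pearson's r 0.95), Pmp22 (0.95), Clca4a (0.95) and Lama3 (0.92), all of the 9. Among genes outside the 9, Susd2 (0.90), Apoa4 (0.85), Cubn (0.84), Sectm1b (0.83) and Apol7a (0.82) came closest. Slc28a2 was in place 10 (0.80), Enpp3 in place 45 (0.73), Nt5e in place 149 (0.65) and Slc23a4 in place 341 (0.57). Nt5e most resembled Asap1 (0.84), Lhfpl2 (0.83), Aplp1 (0.82), Mapre3 (0.82) and Skil (0.82), none of them among the 9, and its own r with Slc23a4 was 0.08. The sums share libraries, depth and free RNA, so these values are descriptions.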

How the data were processed

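The 10x 3′ libraries of 6 samples were aligned by the authors to mm10 with Cell Ranger 6.0.0, and the deposited values are raw UMI counts per gene and barcode, in a matrix of called cells and one of all droplets; the annotation release is not given in the sources used here. Each library is 1 group of pooled mice, so groups of mice were not tested against each other. The compartments were tested over the 3 groups on summed counts with edgeR 4.0.16 (quasi-likelihood, TMM, filterByExpr, adjusted p of 0.05 by Benjamini-Hochberg), with the group as a block because both libraries of a group come from the same mice; this test was added after seeing the data. Barcodes with under 750 genes or over 20% mitochondrial UMIs were removed, as were 4794 likely doublets (0.8% per 1000 barcodes, scored against simulated doublets without the 9 genes); 24059 of 59457 cells passed. Cells were normalised and integrated in Seurat 5.3.0 (sctransform 0.4.2, 30 components, resolution 0.4) without the 9 genes, and clusters were named from marker lists. UMIs were summed per library and class and scaled to counts per 1000000 UMIs (CPM); ratios carry exact conditional binomial intervals and shares exact binomial ones at 95%, which cover counting error only. A log2 ratio of 0.5 was called, against genes with a mean of 50 UMIs (20 for gene lists). For co-detection each cell was thinned to 3000 UMIs and shallower cells were left out. Scripts were tested on simulated data. Beside the 9, at most the 3 highest and 3 lowest log2 ratios of each gene list were named, and the 5 genes with the highest Pearson correlation of log2(CPM + 1) with Ada or Nt5e over sums of at least 20 cells, among genes with at least 500 UMIs. The 9 genes and the lists were chosen with earlier results of these data known, and the comparisons within and without cluster 8 were chosen after seeing the data. The work was done in R 4.3.3 and Python 3.11.15 with scikit-learn 1.9.0, scipy 1.17.1, matplotlib 3.10.9, pandas 2.3.3 and numpy 2.4.6.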

Additional observations from a re-analysis of the deposited data

Results flagged for a closer look

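Nt5e lay on opposite sides of 0 with the high-fat diet in the 2 compartments. Its log2 ratio of HFD sham to LFD sham in enterocyte-like cells was 0.532 in the crypt-labelled libraries and -0.513 in the villus-labelled ones. The difference between the compartments was not tested, since each has 1 library per group, and within cluster 8 both ratios were above 0, at 0.47 and 1.45. The opposition depended on the filter: with at most 10% mitochondrial UMIs the ratios were -0.453 and 0.758, and with at least 1500 genes -0.183 and -1.533.

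Ada was also present in droplets that were not called as cells, which the comparisons did not use. These held 21892 UMIs of Ada in LFD sham, 38961 in HFD sham and 15153 in HFD VSG of the crypt-labelled libraries, and 2532, 1633 and 739 in the villus-labelled ones, each above the 3 UMIs that a count of 0 allows. They were 25.2% to 62.2% of all Ada UMIs of a library, with the highest share in the HFD sham crypt-labelled library, where 44.3% of the UMIs of all genes lay outside called cells.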

How the results depend on the processing

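Each group and compartment is 1 library, so none could be left out of the comparisons of diet and surgery. The comparison of compartments was paired by the group of mice. Without that replicate block edgeR called 9 of the 9 genes over passing cells and 0 in enterocyte-like cells, without cluster 8 and within cluster 8, against 9, 9, 9 and 1 with the block. In enterocyte-like cells with or without cluster 8 it then called 0 of all genes. Leaving out 1 group of mice at a time gave 0 to 9 over passing cells (0 without HFD VSG, where 0 of 14231 genes were called, and 7 without LFD sham, where 19 of 14339 were called lower), 9 each time in enterocyte-like cells with or without cluster 8, and 0 to 2 within it. Of the other summary values, 149 stayed within the limits set and 61 moved under the settings listed at the outset, and 47 and 13 under those chosen after seeing the data (without and within cluster 8, the unnamed cluster added at resolution 0.8, and without shallow clusters). The cause of each change was not tested. Counts of genes below -0.5 or above 0.5 are given for HFD sham to LFD sham (diet), HFD VSG to HFD sham (surgery) and HFD VSG to LFD sham (both), from the value reported to the alternative.

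For the diet in the crypt-labelled libraries, the count below went from 0 to 4 with 1500 genes per cell, 2 with at most 10% mitochondrial UMIs or stated free-RNA fractions, and 1 without cluster 8, at resolution 0.8 or with 0.1 of free RNA subtracted. The count above went from 1 to 0 over all passing cells, with 1500 genes, with at most 10% mitochondrial UMIs, under either free-RNA subtraction and at a log2 size of 1, to 3 without cluster 8 or with the unnamed cluster added, and to 4 at resolution 0.8. For surgery there, the count below went from 2 to 0 with 1500 genes (2 above), 7 with at most 10% mitochondrial UMIs or with the unnamed cluster added, 4 with doublets kept or median-of-ratios scaling, 5 without cluster 8 or at resolution 0.8, and 1 at a log2 size of 1. For both there, 4 below became 2 (1 above) with 1500 genes, 7 with at most 10% mitochondrial UMIs and 1 at a log2 size of 1. In the villus-labelled libraries, the diet's 9 below became 1 (1 above) with at most 10% mitochondrial UMIs and 0 (4 above) within cluster 8. Surgery's 9 below became 5 with 1500 genes and at a log2 size of 1, with 1 above over all passing cells or without cluster 8. For both, 9 below became 4 (1 above) within cluster 8, and for villi to crypts within cluster 8 they became 4, 0 and 5 in LFD sham, HFD sham and HFD VSG.

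Several log2 ratios past 0.5 changed sign. Nt5e with the diet in the crypt-labelled libraries went from 0.532 to -0.453 (at most 10% mitochondrial UMIs) and -0.183 (1500 genes), and Slc28a2 with surgery from -0.874 to 0.024 (1500 genes). With the diet in the villus-labelled libraries at most 10% mitochondrial UMIs gave 0.289 for Ada, 0.758 for Nt5e, 0.102 for Slc28a2, 0.215 for Clca4a, 0.043 for Lama3 and 0.184 for Pmp22, and resolution 0.8 gave 0.043 for Pmp22. With surgery there, Nt5e became 0.220 (1500 genes) and 0.063 (all passing cells), Slc23a4 0.503 (all passing cells) and 0.469 (resolution 0.8), and Lama3 0.021 (resolution 0.8). Ratios within 0.5 that ended past 0.5 on the other side of 0 were, in the crypt-labelled libraries, Nt5e (0.851) and Lama3 (0.606) with surgery and Ly6m (-0.501) with the diet at 1500 genes, and for both Lama3 (-0.619) with at most 10% mitochondrial UMIs and Nt5e (-0.580) at resolution 0.8. At most 10% mitochondrial UMIs left 43, 47 and 20 crypt-labelled and 10, 20 and 8 villus-labelled cells of cluster 8, and at resolution 0.8 most of cluster 8 lay in an unnamed cluster and so outside the enterocyte-like class. At least 1500 genes left 205, 90 and 237 crypt-labelled and 92, 34 and 22 villus-labelled cells of cluster 8.

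In the order LFD sham, HFD sham and HFD VSG, the odds ratio of Ada and Nt5e stayed above 1: 11.35, 9.15 and 28.51 in crypt-labelled and 4.217 (LFD sham) and 8.467 (HFD VSG) in villus-labelled libraries over all passing cells, 4.27, 3.63, 5.689, 16.3, 49.24 and 16.08 without thinning, and 2.527, 4.923, 5.567, 7.667 and 54.05 at resolution 0.8. The summed ratio of highest to lowest score bin was 29.78, 26.46, 39.92, 187.5, 117.7 and 266.7 over all passing cells and 88.45, 84.14, 102.5, 450.9, 1092 and 1344 without Apoa4, Reg1, Reg3b and Reg3g. With bins cut within each library it was 76.6 and 78.55 in the HFD sham and HFD VSG crypt-labelled and 319.2, 185.7 and 145.5 in the villus-labelled libraries.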
